A study of Homo sapiens with 2 samples.

Results

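The cell-adhesion genes CDH1, EPCAM, CEACAM5, CEACAM6, CDHR2 and CDHR5 were examined for FLAG-wt-Cdx1 and FLAG-wt-Cdx2 binding in DLD1-TetOff cells by ChIP-seq. Members were the peaks with their summit in 5 windows of GRCh37, each reaching from about 20 kb before a gene to about 20 kb after it, with CEACAM5 and CEACAM6 in a common window. These windows spanned 68751000 to 68890000 of chromosome 16 (CDH1), 47576000 to 47635000 of chromosome 2 (EPCAM), 42192000 to 42297000 of chromosome 19 (CEACAM5 and CEACAM6), 175949000 to 176043000 of chromosome 5 (CDHR2) and 596000 to 646000 of chromosome 11 (CDHR5). CDHR5 lies on the minus strand and the other genes on the plus strand. Members numbered 40 among the 196910 peaks called for FLAG-wt-Cdx1 and 39 among the 218718 called for FLAG-wt-Cdx2.

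DLD1-TetOff is a human colon cancer line that carries the pTetOff transactivator, and the tagged proteins are mouse wt-Cdx1 and wt-Cdx2 expressed from transfected genes. There was 1 library for each factor, made from 10 dishes of cells that were pooled 20 h after removal of doxycycline (DOX, 0.5 µg/mL). For both libraries, cells were fixed in 1% formaldehyde for 5 min and chromatin was digested with micrococcal nuclease (MNase) for 50 min. The sample descriptions speak of cells kept in DOX without the tagged protein, but the growth and treatment notes and the methods of the study say that DOX was removed, and the libraries were taken as induced. No input DNA, no cells without the tagged protein and no measurement of RNA were analysed here, so a summit gives a place of recovered chromatin and says nothing of the level of the gene. After filtering, 16452141 tags (FLAG-wt-Cdx1) and 13781541 tags (FLAG-wt-Cdx2) were kept. With no replicates, the factors were not compared by a test, and all intervals below cover counting error only. The factors were expressed in separate TetOff cell clones, and the methods of the study say that Cdx1 was induced faster than Cdx2. Differences between the factors below therefore cannot be told apart from differences of clone or of induction.

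CDX1 and CDX2 are homeobox factors that set the identity of the intestinal epithelium, and they bind AT-rich DNA with a core of ATAAA. The 6 genes encode surface proteins of that epithelium. CDH1 encodes E-cadherin, the calcium-dependent adhesion protein of adherens junctions, whose cytoplasmic tail binds β-catenin. EPCAM encodes a homophilic adhesion protein of epithelial cells. CEACAM5, the carcinoembryonic antigen, and CEACAM6 are lipid-anchored adhesion proteins of the immunoglobulin superfamily. CDHR2 and CDHR5 are protocadherins that link the tips of neighbouring microvilli in the brush border.

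Summits were found in all 5 windows with both factors. Pileup counts the fragments over a summit, and fold enrichment divides it by the local background after 1 is added to both. With no control library, this background was taken over 10 kb of the same library, so the fragments of the peaks themselves count in it. A percentile states how many percent of the peaks in a library had a lower value. As pileups are whole numbers with many ties, a peak at the median pileup of its list (9 for FLAG-wt-Cdx1, 8 for FLAG-wt-Cdx2) has a percentile of 31.9 or 44.8 and not 50. Of the 40 FLAG-wt-Cdx1 summits, 9 lay upstream of a gene, 22 within and 9 downstream, and of the 39 FLAG-wt-Cdx2 summits these numbers were 10, 16 and 13. Gene starts and ends were placed 20 kb inside the window edges and are therefore approximate, as are all distances from a start given below. Pileups were 5 to 24 fragments (FLAG-wt-Cdx1) and 4 to 22 fragments (FLAG-wt-Cdx2), and the median pileup percentile was 41.0 (95% interval of the median, 31.9 to 63.4) and 44.8 (24.3 to 60.2), respectively. Of the FLAG-wt-Cdx1 members, 20 were above the median pileup of the list and 12 below it, and of the FLAG-wt-Cdx2 members 18 were above and 16 below. Through ties, the whole lists are not split evenly either. Of all FLAG-wt-Cdx1 peaks, 31.9% had a pileup under 9 and 50.1% under 10. Of all FLAG-wt-Cdx2 peaks, 44.8% had a pileup under 8 and 60.2% under 9. A −log10 q of at least 5 was reached at 18 FLAG-wt-Cdx1 members (45%), compared with 52.2% of the whole list, and at 7 FLAG-wt-Cdx2 members (17.9%), compared with 29.0%. At or above the 95th pileup percentile were 2 FLAG-wt-Cdx1 members (5%, against 4.26% of the whole list) and 4 FLAG-wt-Cdx2 members (10.3%, against 4.47%), all of them at EPCAM, CDHR2 or CDHR5.

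**Figure D1:**
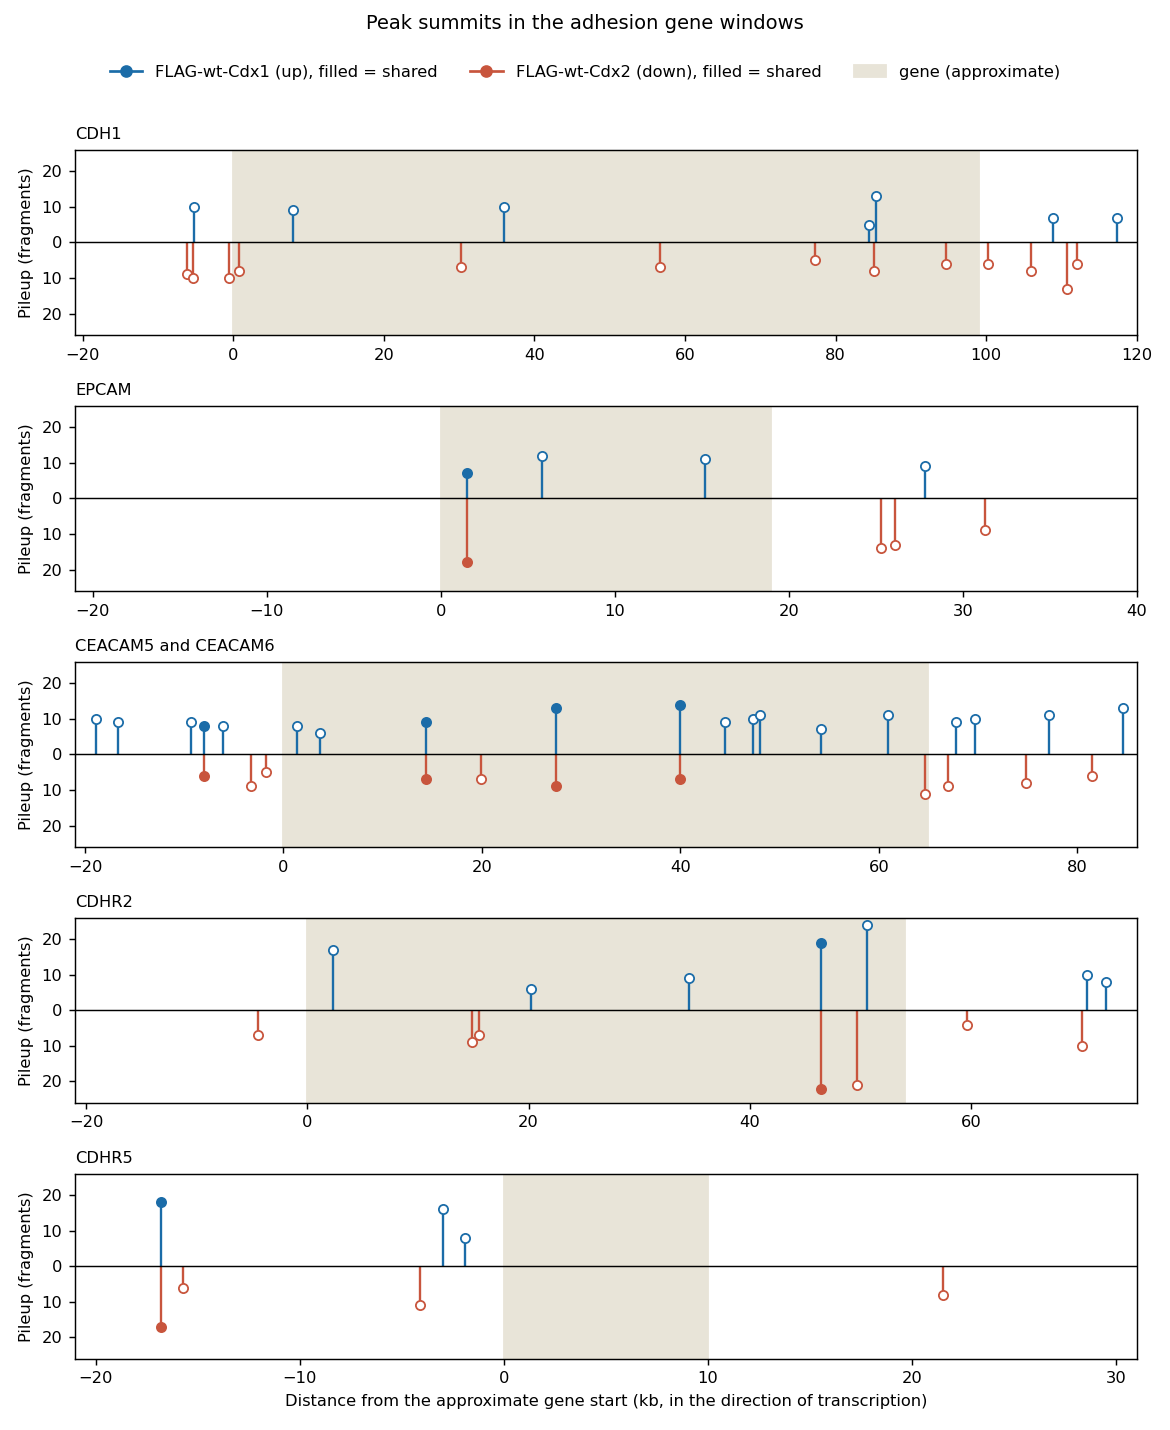
Summits of FLAG-wt-Cdx1 (upward) and FLAG-wt-Cdx2 (downward) in the 5 windows, where the x axis is the distance from the approximate gene start in kb, the height is the pileup in fragments, shading marks the gene, and filled points are summits within 100 bp of a summit of the other factor. The highest summits stand near the end of CDHR2, upstream of CDHR5 and, for FLAG-wt-Cdx2, near the start of EPCAM. FLAG-wt-Cdx1 also had a pileup of 17 near the start of CDHR2.

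A summit was called shared when a summit of the other factor lay within 100 bp. In the windows, 7 FLAG-wt-Cdx1 summits (17.5%; 95% Wilson interval, 8.75 to 31.9) and 7 FLAG-wt-Cdx2 summits (17.9%; 8.98 to 32.7) were shared. Over the whole lists, 29.2% of FLAG-wt-Cdx1 and 26.3% of FLAG-wt-Cdx2 summits were shared, and both values lay within the intervals of the members. Of these 7 sites, 4 were in the window of CEACAM5 and CEACAM6, 1 each was at EPCAM, CDHR2 and CDHR5, and 0 were at CDH1. When any overlap of peaks was counted instead of the distance of summits, 9 FLAG-wt-Cdx1 and 9 FLAG-wt-Cdx2 members were shared (whole lists, 34.2% and 30.8%), since 1 pair at CDH1 and 1 at CDHR2 overlapped with their summits further apart.

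**Figure D2:**
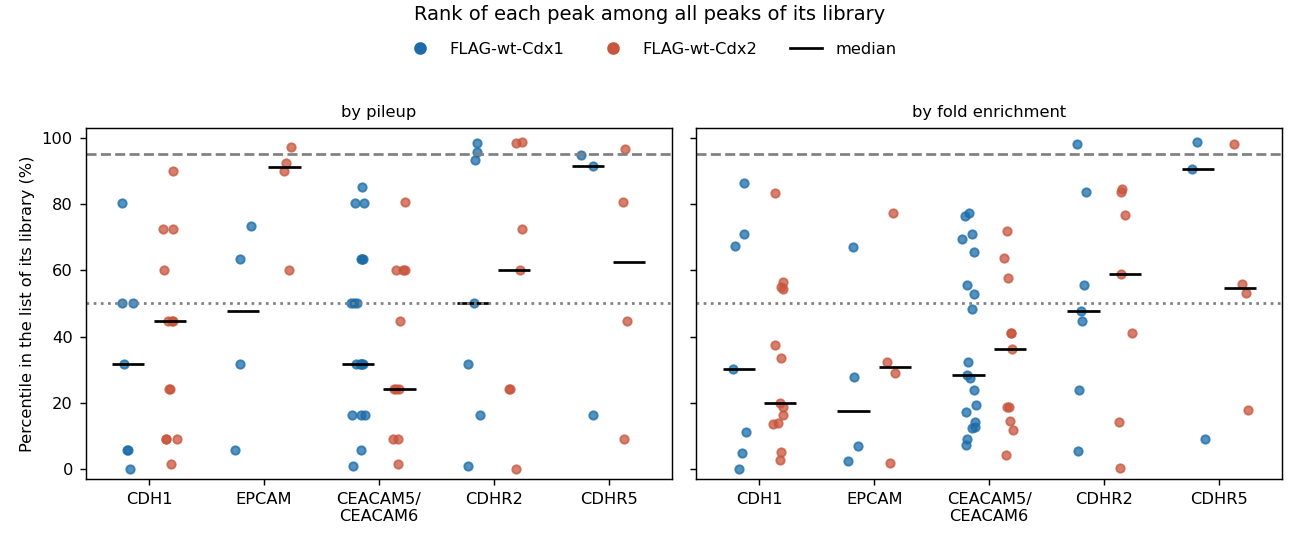
Percentile of each member among all peaks of its library, ranked by pileup (left) or by fold enrichment (right), with 1 point per peak, a black line at the median of each window and dashed and dotted lines at 95% and 50%. FLAG-wt-Cdx2 peaks at EPCAM ranked high by pileup (median, 91.1) and lower by fold enrichment.

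At CDH1, no pileup exceeded 13 and the factors shared none within 100 bp. FLAG-wt-Cdx1 had 7 summits, with pileups from 5 to 13 (median, 9), and FLAG-wt-Cdx2 had 13, with pileups from 5 to 13 (median, 8). Their density was 5.04 and 9.35 summits per 100 kb, against 5.05 and 6.13 on the whole of chromosome 16. The summits nearest to the CDH1 start were both FLAG-wt-Cdx2 summits, 0.6 kb upstream at position 68770427 (pileup, 10, and fold enrichment, 4.83) and 0.8 kb downstream at 68771825 (pileup, 8, and fold enrichment, 3.84). Either of these could lie on the promoter side or the gene side of the true start, which was placed only approximately. The nearest FLAG-wt-Cdx1 summits were 5.2 kb upstream, at 68765757 with a pileup of 10, and 8.0 kb downstream, at 68779020 with a pileup of 9. Between 5.2 and 5.4 kb upstream, the factors had summits 204 bp apart with the same pileup of 10, and these peaks did not overlap.

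The highest FLAG-wt-Cdx1 peak of the CDH1 window lay 85.3 kb into the gene, near its end, at position 68856350, with a pileup of 13 (95% exact Poisson interval, 6.92 to 22.2), a fold enrichment of 7.16 and a percentile of 80.2. A FLAG-wt-Cdx2 peak with a pileup of 8 overlapped it, and the summits were 242 bp apart. The highest FLAG-wt-Cdx2 peak, also with a pileup of 13 (percentile, 89.8, and fold enrichment, 6.11), lay beyond the gene at 110.7 kb, at position 68881719. The remaining FLAG-wt-Cdx1 summits were at 68806981 (pileup, 10), 68855420 (pileup, 5), 68879765 (pileup, 7) and 68888281 (pileup, 7), and the remaining FLAG-wt-Cdx2 summits had pileups of 5 to 9. No CDH1 summit had a summit of the other factor within 100 bp. Most summits of the whole lists had none either, as 29.2% (FLAG-wt-Cdx1) and 26.3% (FLAG-wt-Cdx2) were shared. TANGO6 is the next protein-coding gene on that side in RefSeq, and which gene the summits of this flank lie in was not determined.

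At EPCAM, the factors had summits 2 bp apart near the gene start, and FLAG-wt-Cdx2 had the higher pileup there. The FLAG-wt-Cdx1 summit at 47597508 had a pileup of 7 (interval, 2.81 to 14.4), a fold enrichment of 3.48 and a percentile of 5.81. The FLAG-wt-Cdx2 summit at 47597506 had a pileup of 18 (10.7 to 28.4), a fold enrichment of 5.86 and a percentile of 97.2. Both lay 1.5 kb downstream of the start. After scaling to kept tags, the ratio of FLAG-wt-Cdx1 to FLAG-wt-Cdx2 was 0.326 (95% exact interval, 0.115 to 0.817), and 0.421% of all 57545 shared pairs had a ratio at or below it. This site was singled out after its values were seen, and with 1 library per factor its ratio is a description.

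The local background moved with this difference. At the 4 FLAG-wt-Cdx2 peaks of the EPCAM window it was 3.23 to 3.51 times the genome-wide value, and 0.67% of the FLAG-wt-Cdx2 list was at or above the median of these peaks. At the 4 FLAG-wt-Cdx1 peaks it was 1.53 to 1.97 times that value. Ranked by fold enrichment, which takes this background into account, the FLAG-wt-Cdx2 peak at the EPCAM start was at the 77.4th percentile and not the 97.2nd. Its part in the difference of pileup was not tested. Within 500 kb on either side, the median over peaks was 2.04 for FLAG-wt-Cdx2 and 1.61 for FLAG-wt-Cdx1 on the same scale, compared with 1.12 and 1.25 on all of chromosome 2.

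The other EPCAM summits were not shared. FLAG-wt-Cdx1 had 2 more summits within the gene, at 5.8 kb (47601798, with a pileup of 12) and 15.2 kb (47611171, with a pileup of 11), where FLAG-wt-Cdx2 had none. Past the gene, FLAG-wt-Cdx2 had 3 summits, at 25.3 kb (pileup, 14), 26.1 kb (pileup, 13) and 31.3 kb (pileup, 9), and FLAG-wt-Cdx1 had 1 at 27.8 kb (pileup, 9). The first of these, at 47621332, had a percentile of 92.4, and 65% of the FLAG-wt-Cdx2 peaks of at least its pileup were shared. No summit of either factor was called in the upstream flank.

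**Figure D3:**
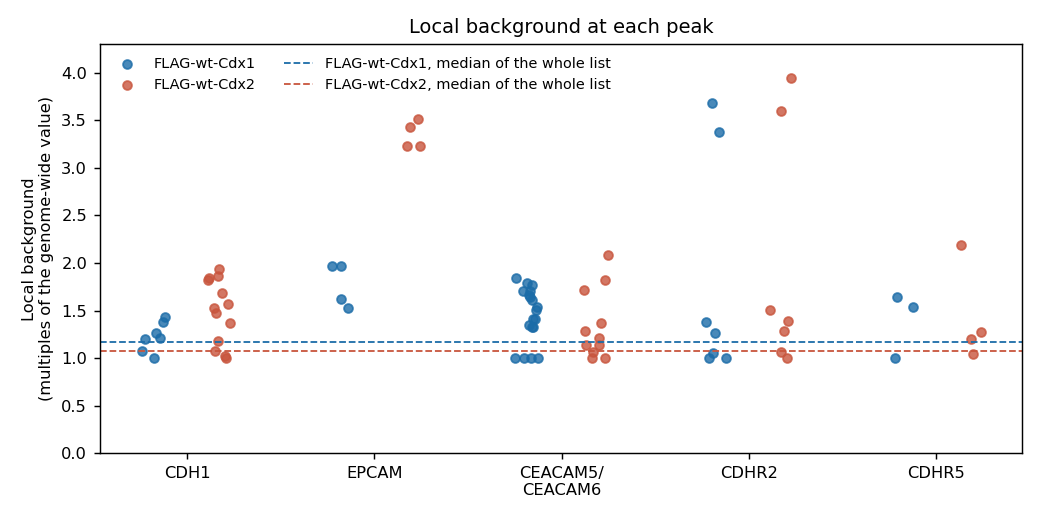
Local background at each member, in multiples of the genome-wide value of its library, with 1 point per peak and dashed lines at the median of each whole list. FLAG-wt-Cdx2 peaks at EPCAM (3.23 to 3.51) and peaks of both factors near the end of CDHR2 (3.38 to 3.94) stood above the rest.

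The window of CEACAM5 and CEACAM6 held the most FLAG-wt-Cdx1 summits, whereas FLAG-wt-Cdx2 had more at CDH1 (13 against 11), in a longer window. FLAG-wt-Cdx1 had 19 summits (18.1 per 100 kb, against 7.42 on chromosome 19) and FLAG-wt-Cdx2 had 11 (10.5 per 100 kb, against 6.94). In the window widened by 500 kb on either side, 152 FLAG-wt-Cdx1 peaks (13.8 per 100 kb) and 94 FLAG-wt-Cdx2 peaks (8.51 per 100 kb) were called. The median pileup was 9 for FLAG-wt-Cdx1, equal to that of its list (9 summits above it and 5 below), and 7 for FLAG-wt-Cdx2, whose list had 8 (4 above and 6 below). These counts stand beside the uneven split of the whole lists given above. The highest pileups were 14 (FLAG-wt-Cdx1) and 11 (FLAG-wt-Cdx2). Per length, the summits of either factor were more numerous than in the other 4 windows. CEACAM5 precedes CEACAM6 on the plus strand, with CEACAM7 before and CEACAM3 after the pair in RefSeq. The window gives no boundary between the genes, so summits between them were not assigned to either. Distances in this window were taken from the CEACAM5 start alone. The CEACAM6 start lies further downstream, as its GRCh38.p14 promoter given below shows, but the peak lists are in GRCh37. No summit was therefore named as the nearest to the CEACAM6 start.

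All 4 shared sites of this window had summits 13 to 28 bp apart. Upstream of CEACAM5, 8.0 kb from its start, the pileup was 8 in the FLAG-wt-Cdx1 list and 6 in the FLAG-wt-Cdx2 list. Downstream of that start, the pileups were 9 and 7 at 14.4 kb, 13 and 9 at 27.5 kb, and 14 and 7 at 40.0 kb. The last of these, at 42251989 and 42251976, was the highest FLAG-wt-Cdx1 peak of the window (percentile, 85.1). FLAG-wt-Cdx1 was higher at all 4 sites, but the ratios per kept tag, from 1.08 to 1.68, had intervals that included 1. Nearest to the CEACAM5 start, FLAG-wt-Cdx1 had a summit 1.4 kb downstream (42213437, with a pileup of 8) and FLAG-wt-Cdx2 had summits 1.8 kb upstream (42210215, with a pileup of 5) and 3.3 kb upstream (42208706, with a pileup of 9). The highest FLAG-wt-Cdx2 peak (42276748, pileup 11, fold enrichment 5.30) stood at 64.7 kb, near the end of CEACAM6, and was not shared. From 44.5 to 60.9 kb, FLAG-wt-Cdx1 had 5 summits with pileups of 7 to 11, and FLAG-wt-Cdx2 had none. They stood at 44.5, 47.3, 48.0, 54.2 and 60.9 kb, with the nearest FLAG-wt-Cdx2 summits 3820 to 10501 bp away. This stretch was chosen after its values were seen. At the FLAG-wt-Cdx2 densities given above (10.5 per 100 kb in the window and 6.94 on chromosome 19), a stretch this short would hold few summits. Over the whole list, 29.2% of FLAG-wt-Cdx1 summits had a FLAG-wt-Cdx2 summit within 100 bp, a share that does not cover distances of kilobases.

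**Figure D4:**
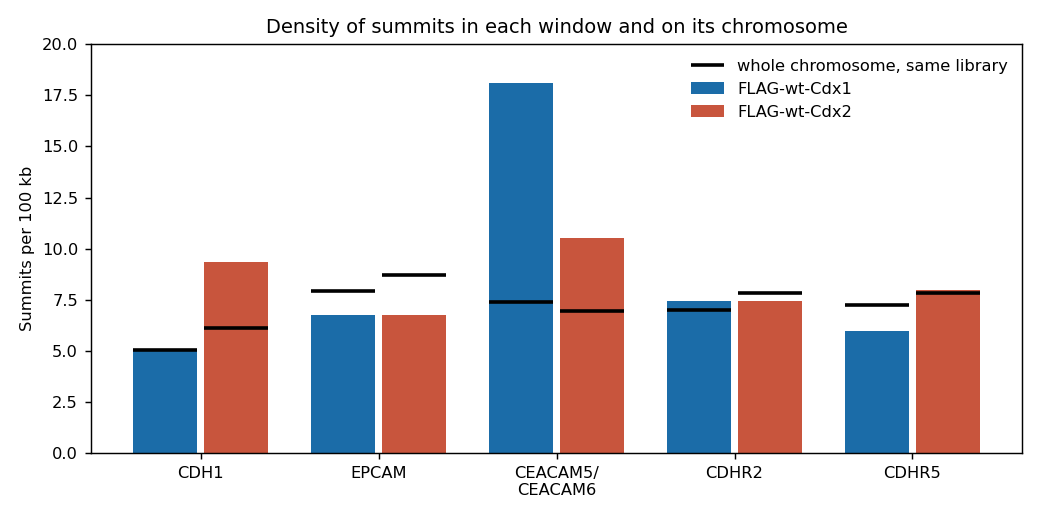
Summits per 100 kb in each window (bars) and on its whole chromosome from the first to the last summit (black lines), for FLAG-wt-Cdx1 and FLAG-wt-Cdx2. FLAG-wt-Cdx1 summits in the window of CEACAM5 and CEACAM6 reached 18.1 per 100 kb, against 7.42 on chromosome 19.

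The promoters of CEACAM5 and CEACAM6 are shown because these genes are paralogs whose start regions resemble each other, and because a homeobox core can be looked for in them. The RefSeq promoter table used here matched 3 of the 6 genes by symbol (250 bases before to 50 after a start, in GRCh38.p14), and no peak was placed on them, since the peak lists are in GRCh37. The CEACAM5 promoter is at chr19:41708376-41708675 and that of CEACAM6 at chr19:41755280-41755579, both on the plus strand. ATAAA and its reverse complement TTTAT were searched, and matches are in capitals.

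CEACAM5: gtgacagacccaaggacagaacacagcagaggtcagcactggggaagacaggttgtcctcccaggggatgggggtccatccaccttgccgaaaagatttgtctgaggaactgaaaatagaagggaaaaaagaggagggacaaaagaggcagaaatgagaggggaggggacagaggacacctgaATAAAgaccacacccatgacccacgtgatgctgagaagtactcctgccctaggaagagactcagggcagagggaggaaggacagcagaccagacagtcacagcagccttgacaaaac
CEACAM6: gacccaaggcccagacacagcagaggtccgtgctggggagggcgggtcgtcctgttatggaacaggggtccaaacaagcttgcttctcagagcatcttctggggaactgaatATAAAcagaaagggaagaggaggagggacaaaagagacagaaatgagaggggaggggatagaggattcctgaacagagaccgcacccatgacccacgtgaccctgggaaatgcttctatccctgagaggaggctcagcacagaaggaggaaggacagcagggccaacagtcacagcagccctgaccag

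Each promoter held 1 match, which began 67 bases before the start in CEACAM5 and 138 bases before it in CEACAM6. The promoters were identical at 75.9% of 311 aligned positions, and the cores stood at different places. Of all 35116 promoters of this length, 34.9% held a match, and both promoters listed for CDHR2 held 0. These matches are a description of the reference sequence and do not mark sites of binding.

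At CDHR2, the highest peaks of both factors lay in the last part of the gene. At 46.4 kb from the start, the FLAG-wt-Cdx1 summit at 176015447 had a pileup of 19 (interval, 11.4 to 29.7; percentile, 95.7), and the FLAG-wt-Cdx2 summit at 176015384, 63 bp away, had a pileup of 22 (13.8 to 33.3; percentile, 98.6). The ratio per kept tag was 0.723 (0.37 to 1.4), so that the pileups differed by less than the counting error. A few kb further, FLAG-wt-Cdx1 had its highest peak of all windows, at 176019571 (50.6 kb) with a pileup of 24 (15.4 to 35.7; percentile, 98.3), and FLAG-wt-Cdx2 had a peak at 176018729 (49.7 kb) with a pileup of 21 (percentile, 98.4). These peaks were 1015 and 1047 bp long, longer than 99.9% of the peaks of either list, and overlapped each other with summits 842 bp apart. The 4 peaks thus formed 2 places of high pileup common to both libraries.

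The local background, in which the fragments of these peaks themselves count, was high at these places. It was 3.68 and 3.38 (FLAG-wt-Cdx1) and 3.94 and 3.60 (FLAG-wt-Cdx2) in multiples of the genome-wide value. At the other CDHR2 peaks it was 1 to 1.38 (FLAG-wt-Cdx1) and 1 to 1.51 (FLAG-wt-Cdx2). Its part in the height of the peaks was not tested. By fold enrichment, the 4 peaks ranked lower, with 5.08 (percentile, 44.6) and 6.76 (83.7) for FLAG-wt-Cdx1 and 6.16 (83.7) and 6.28 (84.5) for FLAG-wt-Cdx2. In RefSeq, GPRIN1 is the next protein-coding gene after CDHR2.

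Near the CDHR2 start, a high peak was called with FLAG-wt-Cdx1 alone. Its summit lay 2.3 kb downstream, at 175971324, with a pileup of 17 (9.9 to 27.2; percentile, 93.2) over the genome-wide background and a fold enrichment of 10.0 (percentile, 98.1). The nearest FLAG-wt-Cdx2 summit was 6825 bp away, 4.5 kb upstream of the start, with a pileup of 7. Scaled to the FLAG-wt-Cdx2 tags, a pileup of 17 corresponds to 14.2 fragments. FLAG-wt-Cdx2 peaks at a background like that of this FLAG-wt-Cdx1 peak were called from 4 fragments, the lowest pileup of their list. The FLAG-wt-Cdx2 background at this place is not known, and why no peak was called there was not tested. Among the 13343 FLAG-wt-Cdx1 peaks of at least this pileup, 58.5% were shared. Past the gene, the factors had summits 477 bp apart, at 176039480 (FLAG-wt-Cdx1) and 176039003 (FLAG-wt-Cdx2), each with a pileup of 10. The remaining CDHR2 summits had pileups of 6 to 9 (FLAG-wt-Cdx1) and 4 to 9 (FLAG-wt-Cdx2).

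At CDHR5, no summit was called within the gene, and the highest peaks lay upstream. A shared site 16.8 kb upstream had summits 3 bp apart, at 642789 (FLAG-wt-Cdx1) and 642792 (FLAG-wt-Cdx2). Its pileups were 18 (10.7 to 28.4; percentile, 94.6) and 17 (9.9 to 27.2; percentile, 96.5), and its fold enrichments of 10.6 and 9.55 stood above 98.7% and 98.2% of the lists. The ratio per kept tag was 0.887 (0.431 to 1.83). This was the shared site with the highest fold enrichment in the windows with either factor, and the local background there was 1 (FLAG-wt-Cdx1) and 1.27 (FLAG-wt-Cdx2) times the genome-wide value. SCT, DRD4 and DEAF1 follow CDHR5 on its upstream side in RefSeq, and whether the site lies in or beside any of them was not determined.

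Closer to the CDHR5 start, the factors had separate summits. FLAG-wt-Cdx1 had summits 1.9 kb upstream (627888, with a pileup of 8) and 3.0 kb upstream (629015, with a pileup of 16, a fold enrichment of 7.62 and a percentile of 91.3). FLAG-wt-Cdx2 had a summit 4.1 kb upstream (630091, with a pileup of 11 and a percentile of 80.5), 1076 bp from the higher of these. Among FLAG-wt-Cdx1 peaks with a pileup of at least 16, 57.3% were shared. On the downstream side, FLAG-wt-Cdx2 had 1 summit 21.5 kb from the start (604526, with a pileup of 8), and FLAG-wt-Cdx1 had none.

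**Figure D5:**
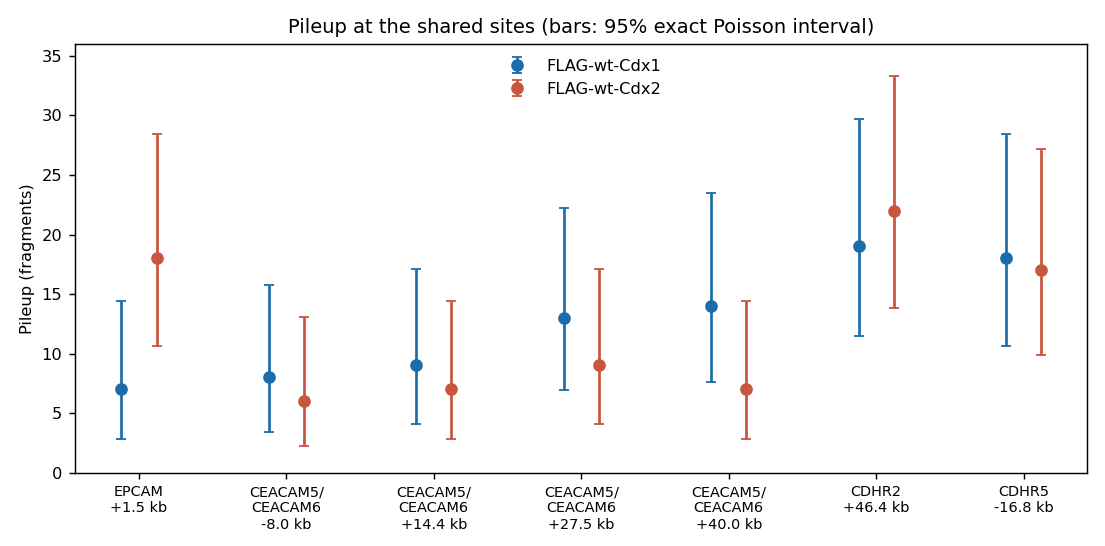
Pileup in fragments at the 7 shared sites, with 1 point per library, bars for the 95% exact Poisson interval, and the distance from the approximate gene start under each site. FLAG-wt-Cdx2 stood at 18 and FLAG-wt-Cdx1 at 7 near the EPCAM start, and the intervals of both libraries overlapped at all 7 sites, the EPCAM site included.

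Side by side, the 7 shared sites differed in height. The sites at CDHR2 and CDHR5 had pileups of 17 to 22 in both libraries, those at CEACAM5 and CEACAM6 had pileups of 6 to 14, and that at EPCAM had 7 and 18. The ratio of FLAG-wt-Cdx1 to FLAG-wt-Cdx2 per kept tag had a median of 1.08 over these sites and 0.952 over all shared pairs, and the interval included 1 at 6 of the 7. Of the 6 members at or above the 95th pileup percentile, 4 had a summit of the other factor within 100 bp (FLAG-wt-Cdx1, 1 of 2, and FLAG-wt-Cdx2, 3 of 4), against 60.3% and 71.0% of all peaks this high in the lists. The other 2 were the long overlapping peaks of CDHR2.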

How the data were processed

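The authors ran MACS 2.0.10.20131216 on either library alone (q-value cutoff, 0.05), with no control library, at most 1 tag per position and a local background taken over 10 kb. The submitters' processing notes name bcl2fastq 1.8.3, cutadapt 1.1, Trimmomatic 0.32, MACS2 2.0.10 and GRCh37. The aligner is not settled by the sources used here. The deposited lists give for each peak the pileup as a signal in fragments, not scaled to depth, −log10 p-values and −log10 q-values, and the fold enrichment as a ratio, each term with a pseudocount of 1. The deposited score was 10 times −log10 q as a whole number, and the pair of lists of each library held the same peaks.

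The local background was recovered from pileup and fold enrichment, and expressed in multiples of its lowest value in the library, taken as the genome-wide value. Peaks were members by their summit, and distances were measured from a start placed 20 kb inside the window. Named summits were the highest of each window and library, those nearest to the start, all shared pairs and all at or above the 95th pileup percentile. In the window of CEACAM5 and CEACAM6, the start was that of CEACAM5, and none was named for CEACAM6. Any other summit given by position was chosen after its values were seen. Shares carry Wilson intervals, pileups exact Poisson intervals, and ratios the exact binomial interval of the split of fragments between the libraries, all at 95%. The interval of a median is that of its order statistics. Sharing, overlap and counting were tested on simulated data. Alternatives covered stricter thresholds, narrower windows, other definitions of sharing and other ranks. With 1 library per factor, no test was made. The genes, windows and lists were chosen with earlier results of these data known. Counts at other adhesion genes were not made, since no annotation of GRCh37 was used here. Calculations used pandas 2.3.3, scipy 1.17.1, biopython 1.88, numpy 2.4.6 and matplotlib 3.10.9 in Python 3.11.15.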

Additional observations from a re-analysis of the deposited data

How the results depend on the processing

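Of 40 alternatives, 30 left a value within 1.5 times its count or within its interval. The number of summits in the windows, 40 and 39, was 18 and 7 at a −log10 q of 5 or more, 19 and 10 at a fold enrichment of 5 or more, and 22 and 16 in windows trimmed by 20 kb on each side, for FLAG-wt-Cdx1 and FLAG-wt-Cdx2, respectively. Such settings can only remove summits, so some fall was fixed in advance. At the stricter q, 45% and 17.9% of the members were left, against 52.2% and 29.0% of the whole lists. Trimming left 247 of 447 kb. The size of the falls was not tested. The median pileup percentile was 31.3 when FLAG-wt-Cdx1 peaks were ranked by fold enrichment, and the cause was not tested. For FLAG-wt-Cdx2 it was 87.9 among peaks of −log10 q 5 or more and 67.2 among those of fold enrichment 5 or more, over the 7 and 10 members left. Both thresholds are computed from pileup, and the ranks stayed those of the whole list, so these rises say nothing of the members. The share of shared summits stayed within its interval under all alternatives, from 10.5% to 22.7% for FLAG-wt-Cdx1 and from 10.7% to 31.2% for FLAG-wt-Cdx2. Leaving out the window of CEACAM5 and CEACAM6, chosen after seeing the data, left 21 and 28 summits, of which 3 and 3 were shared (14.3% and 10.7%). No paired analysis was possible because each factor had only 1 library. The lowest pileup in the whole lists was 5 (FLAG-wt-Cdx1) and 4 fragments (FLAG-wt-Cdx2), and binding under the threshold of the lists was not detectable.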
